A study of Macaca nemestrina with 15 samples.

Results

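Blood monocytes are recognised by a set of genes for identity, sensing and killing, and 41 such genes were followed here in peripheral blood mononuclear cells (PBMCs), the lymphocytes and monocytes of blood, from 5 pig-tailed macaques (*Macaca nemestrina*). The genes were chosen by name: a feature of the count table was a member when its name equalled one of the 41 symbols. Of these, 37 had a row and all 37 passed the filter on low counts, out of 28865 features listed and 12880 tested. *FCN1*, *FPR1*, *CTSD* and *CEBPA* had no row under those symbols. The members fall into 15 genes of classical monocytes, 10 genes of non-classical monocytes or macrophage-like cells, and 12 genes shared by myeloid cells.

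Each animal received islatravir (ISL), a nucleoside reverse transcriptase translocation inhibitor, by mouth at 30 mg/kg once a week for 12 weeks. RNA was sequenced from PBMCs collected before the first dose (pre-treatment, labelled Control), at week 12 during dosing, and at week 18, after dosing had stopped (both labelled Islatravir), giving 5 libraries per time point and 15 in all. No untreated animals were among the libraries, so time and treatment cannot be told apart, and the animals' ages are not given in the sources used here. The dates in the library names, whose meaning is not stated, lie 56 or 57 days and 84 days after each animal's first. These intervals are shorter than the 12 and 18 weeks that the labels name, so the timing of the libraries against dosing rests on the labels, which are used here. The animals Z15303, Z15339 and Z15408 share their dates, while Z13076 and Z15228 each have dates of their own.

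Classical monocytes carry much CD14, the co-receptor for bacterial lipopolysaccharide, and are rich in alarmins and lysozyme. Non-classical monocytes patrol vessel walls, carry little CD14, and depend on signalling through the CSF1 receptor, which also keeps macrophages alive. Both belong to one lineage that is set by transcription factors of the PU.1 and C/EBP families.

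Per library, 5610597 to 10379572 counts fell on genes, and Z15303 had the lowest totals at week 12 and week 18. The labelled tissue was checked against markers of blood cells. Over 7 monocyte markers the summed level ranged from 2055 to 4052 CPM (counts scaled to a common library size) before treatment, from 2106 to 3487 at week 12 and from 2481 to 5197 at week 18, and no marker with a row was at 0 in every library. The 12 neutrophil markers with a row summed to 90.8 to 362 CPM over all libraries, with *CXCR1* and *CXCR2* having no row. The 8 tested B-cell markers all had negative log2 fold changes at both later time points, with medians of −0.94 and −1.06, and 4 and 5 of them had an unadjusted p under 0.05, though none passed the adjusted test. With each animal as a block all 8 had an unadjusted p under 0.05 at both time points, and again none passed, with adjusted p of 0.0768 at week 12 and 0.0534 at week 18 for *MS4A1*, the gene of CD20. Their part in the changes of the monocyte genes was not tested. In bulk RNA of this kind, fewer monocytes and less RNA of a gene per monocyte cannot be told apart.

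Levels are CPM from libraries scaled by edgeR's TMM method. Changes are log2 fold changes with standard errors (SE) from edgeR's quasi-likelihood test over all features tested, and p-values adjusted by the Benjamini-Hochberg method passed at 0.05. Where values of 5 libraries are listed, they stand in the order Z13076, Z15228, Z15303, Z15339, Z15408. Since libraries of the same animal deviated together, each test was repeated with the animal as a block, and its p is given where the unadjusted call of a member at 0.05 differs. Unless stated, changes, SEs, p-values and shares of features are from the fit without the block. That fit does not use the pairing of libraries by animal, so its SEs and p-values also hold differences between animals. At week 12 the SE of *LYZ* was 0.33 without and 0.14 with the block, and that of *GRN* 0.18 and 0.17. The comparisons at week 12 and week 18 share the pre-treatment libraries.

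No monocyte gene passed the adjusted threshold in any of the 3 comparisons. The adjusted p of every member was 1.00 after rounding, and no feature of any kind passed (0% of 12880 in each comparison). DESeq2's Wald test passed 1 feature at week 12 and 0 in the other comparisons, and none of them was a member. With the block, 0.00776% of features passed at week 12, 0.00776% at week 18 and 0% between week 18 and week 12, and none was a member. The lowest adjusted p of a member with the block was 0.579 at week 12, for *FGL2*, and 0.493 at week 18, for *CEBPD*. DESeq2's Wald test with the block gave the same 2 genes 0.344 and 0.299. All changes below are therefore descriptions of genes that did not pass the adjusted test, and counts by unadjusted p are set against the share of all features under the same limit.

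At week 12 most monocyte genes had lower values than before treatment, but not in every animal. The median log2 fold change over the 37 members was −0.16, while that of all features was 0.00, and 25 members had a negative value. Within animals the median change was −0.64 in Z13076, −0.28 in Z15228 and −0.22 in Z15303, against 0.14 in Z15339 and 0.18 in Z15408. Of the 37 members, 34 were lower in Z13076 and 32 in Z15228, but 12 in Z15339 and 13 in Z15408. Without Z13076 the fitted median was −0.08. The range of fitted changes was −0.54 to 0.48.

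At week 18 the classical genes had fitted values above their pre-treatment levels, while the other groups were split, and none passed the test. All 15 classical genes had a positive log2 fold change against pre-treatment, from 0.02 to 0.78 with a median of 0.35. All 15 were also positive by DESeq2, with DESeq2's size factors and with libraries scaled by total counts. With the block 14 were, *THBS1* being negative, and 12 to 15 were when each animal was left out, with 12 without Z15228. Fitted on the 3 animals with shared dates, 10 were positive, and *VCAN*, *CSF3R*, *CD36*, *MNDA* and *PLBD1* were negative. Of the 10 non-classical and macrophage-like genes, 7 were negative, with a median of −0.07 and a range from −0.48 to 0.24. The shared myeloid genes were split, 6 positive and 6 negative, with a median of −0.02. The median over the 37 members was 0.08, and it ranged from 0.02 without Z15228 to 0.17 without Z15303.

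The difference between the classical and the non-classical medians was 0.08 at week 12, 0.42 at week 18 and 0.28 between week 18 and week 12, on the log2 scale. In single animals at week 18 it was 0.57 in Z13076, 0.38 in Z15228, 0.43 in Z15303 and 0.60 in Z15339, but −0.18 in Z15408 (mean 0.36, SD 0.32, n = 5). So 4 of 5 animals had the higher median in the classical genes. In Z15303 this came with a classical median near 0 (−0.01) and a lower non-classical one (−0.44), whereas in Z13076, Z15228 and Z15339 the classical median was 0.44 to 0.46. At week 12 the difference was positive in 2 of 5 animals. When each animal was left out of the fit, the week 18 difference lay between 0.31, without Z13076, and 0.64, without Z15408. That of week 12 turned to −0.10 without Z15303 and was 0.17 without Z13076 and 0.24 without Z15408. Between week 18 and week 12 it fell to 0.12 without Z15228. No test was made of these medians, since the genes of a list are not replicates. The non-classical group also holds macrophage-like genes, such as *CD163*, *CD68* and *CTSB*, so the difference does not measure non-classical monocytes alone.

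**Figure D1:**
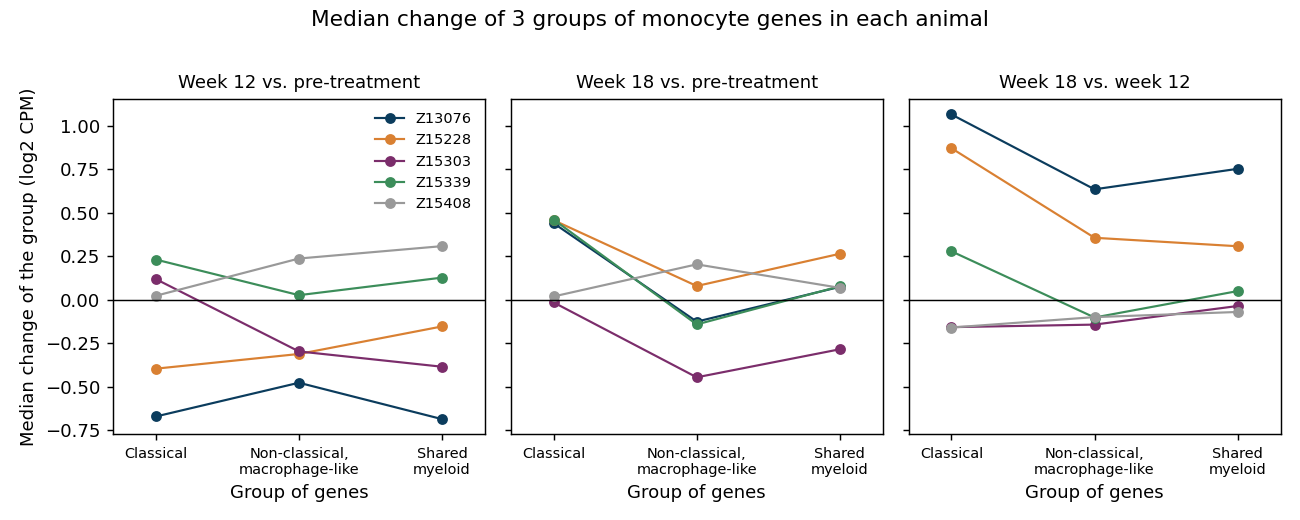
Median change in log2 CPM within each animal (y axis) for the classical, the non-classical and macrophage-like, and the shared myeloid genes (x axis), with 1 line per animal and 1 panel per comparison. At week 18 the classical point lies above the non-classical one in 4 of 5 animals, and between week 18 and week 12 the medians of Z13076 and Z15228 lie above 0 in all 3 groups.

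The gene for *CD14* itself was measured at 868, 569, 538, 237 and 405 CPM before treatment, at 440.0, 552, 459, 345 and 653 CPM at week 12, and at 1177, 1104, 486, 496 and 664 CPM at week 18. The means were 523 ± 233, 489.9 ± 117 and 786 ± 333 CPM (SD, n = 5). Z13076 was the highest animal before treatment and at week 18 but the second lowest at week 12, and the values of the 3 time points overlapped. The change was −0.10 (SE 0.32) at week 12, with 3 animals lower and 2 higher. At week 18 it was 0.59 (SE 0.32), higher in 4 of 5 animals (unadjusted p = 0.0823, and 0.00782 with the block, adjusted p = 0.589). Without Z15339 the p with the block was 0.0506.

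Between week 12 and week 18, *CD14* was higher in 5 of 5 animals, by 0.68 (SE 0.32) (unadjusted p = 0.0468, adjusted p = 1.00). The differences in log2 CPM were 1.42, 1.00, 0.08, 0.53 and 0.03. They were large in Z13076 and Z15228 and close to 0 in Z15303 and Z15408. The unadjusted p without Z13076 was 0.172 and without Z15228 0.148, and without Z15303 it was 0.0514.

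*VCAN* encodes versican, a matrix proteoglycan that classical monocytes make in quantity. Its level was 223, 179.5, 118, 91.0 and 349 CPM before treatment, 118, 175, 217, 107 and 248 CPM at week 12 and 273, 318, 152, 130.4 and 222 CPM at week 18. The time points overlapped fully. The log2 fold changes of −0.15 (SE 0.34) at week 12 and 0.19 (SE 0.34) at week 18 were smaller than their errors. With the block the week 18 change was 0.27 (SE 0.22), larger than its error (unadjusted p = 0.223). In the fit without the block, the week 18 value was 0.0062 without Z15228 and 0.52 without Z15408. For the latter, the unadjusted p with the block was 0.0421. Z15408, the highest animal before treatment, was the single animal to be lower at week 18.

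*S100A8* and *S100A9* encode the subunits of calprotectin, a calcium-binding alarmin stored in monocytes and neutrophils. *S100A8* was at 179.7, 200.4, 114, 40.3 and 166 CPM before treatment, 86.4, 143, 292, 77.2 and 154 CPM at week 12 and 244, 320.1, 205, 99.1 and 119 CPM at week 18. *S100A9* was at 245, 314, 123, 48.8 and 171 CPM, 86.0, 211, 315, 107 and 238 CPM and 276, 419.7, 199.7, 135 and 200.0 CPM in the same order of time. Both genes went in opposite directions in different animals at week 12. Z13076 and Z15228 were lower, with differences in log2 CPM of −1.51 and −0.58 for *S100A9*, while Z15303 and Z15339 were higher, by 1.36 and 1.12. The fitted changes at week 12 were 0.10 (SE 0.43) for *S100A8* and 0.08 (SE 0.44) for *S100A9*.

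At week 18 *S100A9* was higher than before treatment in 5 of 5 animals, with a change of 0.45 (SE 0.44) (unadjusted p = 0.324, and 0.0775 with the block). *S100A8* was higher in 4 of 5 animals, with a change of 0.49 (SE 0.43). Z15408 was the exception for *S100A8*, at a difference of −0.48.

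*S100A12*, another alarmin of this family, and *CLEC4E*, the receptor Mincle for mycobacterial and fungal glycolipids, showed the same split of animals at week 12. *CLEC4E* differed by −0.69, −0.68, 1.31, 1.97 and 0.96 in log2 CPM. Both were also higher in 5 of 5 animals at week 18, with fitted values of 0.78 (SE 0.64) and 0.74 (SE 0.55), although *S100A12* in Z15303 differed by 0.01. Their counts were low, 1 to 29 reads per library for *S100A12* and 3 to 62 for *CLEC4E*, so single libraries carry a wide counting error. Of the other members, *CD36* was as thin, at 14 to 68 reads, and the remaining 34 had at least 86 reads in each library. Neutrophils make the same alarmins, and the median change of 11 neutrophil markers at week 12 was −0.80, 0.25, 0.31, 0.03 and 0.00 in the 5 animals. Their part in the alarmin levels was not tested.

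*CSF3R*, the receptor for granulocyte colony-stimulating factor, stood at 196, 154, 154, 122 and 217 CPM before treatment, 126, 128, 132, 131 and 184 CPM at week 12 and 339.9, 259, 129, 138 and 206 CPM at week 18. At week 12, 4 libraries lay within 126 to 132 CPM, and Z15408 stood above them. Between week 12 and week 18 the change was 0.61 (SE 0.24) (unadjusted p = 0.0205), with differences in log2 CPM of 1.43, 1.01, −0.04, 0.08 and 0.16. As with *CD14*, the large differences were those of Z13076 and Z15228, and the unadjusted p was 0.166 without Z13076 and 0.101 without Z15228. Neutrophils carry this receptor too, and the 11 neutrophil markers had median changes of 1.83, −1.24, −0.51, 0.86 and 0.59 over the same interval, high in Z13076 but low in Z15228. At week 18 against pre-treatment the change was 0.35 (SE 0.24), higher in 3 animals and lower in 2.

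*MNDA*, a nuclear protein induced by interferon in myeloid cells, was at 562, 396, 534, 326 and 675 CPM before treatment, 448, 334, 463, 305 and 471 CPM at week 12 and 842, 532, 382, 350.3 and 455 CPM at week 18. It was lower at week 12 in 5 of 5 animals, by differences in log2 CPM of −0.33, −0.25, −0.20, −0.10 and −0.52. The fitted change was −0.30 (SE 0.24) (unadjusted p = 0.225), and the time points overlapped. At week 18 the change was 0.04 (SE 0.24), with 3 animals higher and 2 lower.

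Of the remaining classical genes, *PLBD1*, a lysosomal phospholipase-like protein, was lower in 5 of 5 animals at week 12, at −0.29 (SE 0.26). *LYZ*, the gene of lysozyme, was lower in 4 of 5 at week 12, at −0.26 (SE 0.33), and higher in 4 of 5 at week 18, at 0.22 (SE 0.33). *CLEC12A*, an inhibitory receptor for uric acid crystals, was higher in 5 of 5 animals at week 18, by 0.45 (SE 0.27) (unadjusted p = 0.113, and 0.0131 with the block, adjusted p = 0.704). Without Z13076 or Z15339 its p with the block was 0.0632 or 0.0570. *SERPINA1*, which encodes the elastase inhibitor alpha-1 antitrypsin, and *TREM1*, an amplifier of inflammatory signals, were at 0.36 (SE 0.32) and 0.15 (SE 0.31) at week 18. *CD36*, a scavenger receptor, was at 0.18 (SE 0.40).

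*THBS1*, the gene of thrombospondin, did not follow the other classical genes. It differed at week 12 by 0.92, −0.72, 0.38, 0.42 and 0.10 in log2 CPM, highest in Z13076, the animal in which 34 of 37 members were lower. Platelets also carry much of its RNA. The median change of 10 platelet markers at week 12 was 1.16 in Z13076 and −1.22 in Z15228, against 0.31, 0.33 and 0.26 in Z15303, Z15339 and Z15408. The part of platelet RNA in the level of *THBS1* was not tested.

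**Figure D2:**
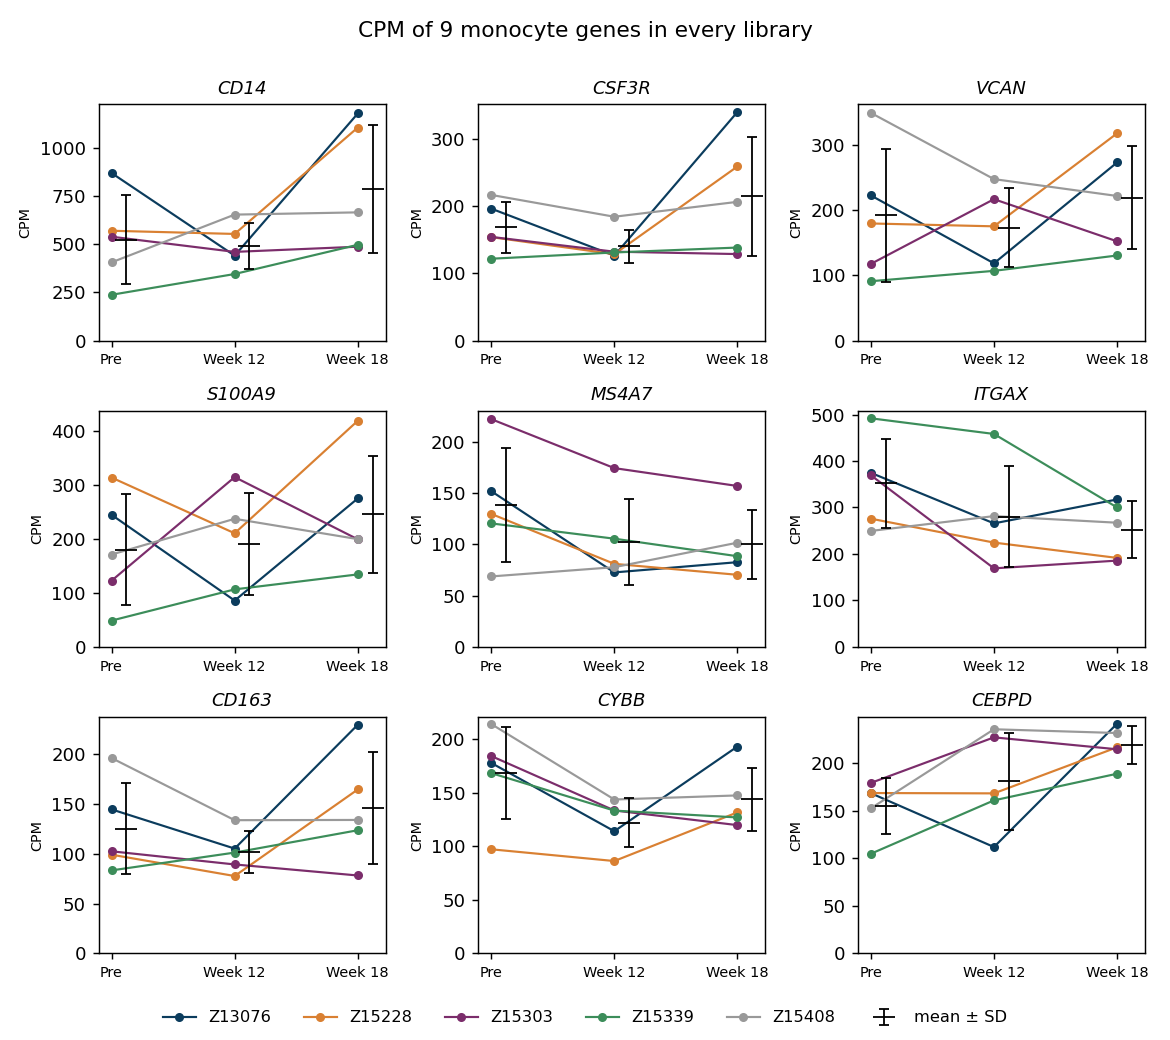
CPM (y axis) of 9 monocyte genes at the 3 time points (x axis), with 1 coloured line per animal and the mean ± SD of 5 libraries in black. *CEBPD* is the single gene whose week 18 values all lie above its pre-treatment values, and the *CD14* and *CSF3R* lines of Z13076 and Z15228 stand higher at week 18 than at week 12 while those of Z15303 are nearly level.

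Most non-classical and macrophage-like genes had fitted values below 0 or close to it. *CSF1R*, the receptor that monocytes and macrophages need for survival, was at 840.3, 443, 1145, 957 and 785 CPM before treatment, 739, 455, 694, 795 and 861 CPM at week 12 and 1089, 627, 699, 728 and 928 CPM at week 18. Its log2 fold changes were −0.23 (SE 0.23) and −0.03 (SE 0.23) (unadjusted p = 0.321 and 0.88). It was lower in 3 of 5 animals at week 12 and in 2 of 5 at week 18.

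*MS4A7*, a tetraspan membrane protein of non-classical monocytes and macrophages, was at 152, 129.7, 222, 120.5 and 68.7 CPM before treatment, 72.6, 81.0, 174, 106 and 77.7 CPM at week 12 and 82.6, 70.3, 157, 88.4 and 102 CPM at week 18. In 4 of 5 animals it was lower at each later time point, and Z15408, the lowest animal before treatment, was higher at both. The changes were −0.44 (SE 0.30) and −0.47 (SE 0.30) (unadjusted p = 0.16 and 0.135). With the block they had unadjusted p = 0.0141 and 0.0148, and adjusted p = 0.798 and 0.735. The week 12 p with the block was 0.0951 without Z13076 and 0.0646 without Z15228, and the week 18 p was 0.0655 without Z13076 and 0.104 without Z15228. Between week 12 and week 18 the gene differed by −0.03 (SE 0.30).

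*ITGAX* encodes CD11c, an integrin chain that non-classical monocytes and dendritic cells carry in quantity. It was at 375, 276, 369, 492 and 249.5 CPM before treatment, 266, 224, 169, 458 and 281 CPM at week 12 and 317, 192, 186, 300.1 and 267 CPM at week 18. Z15408 was again the animal that did not go lower, and the values overlapped. The change was −0.33 (SE 0.25) at week 12 and −0.48 (SE 0.25) at week 18 (unadjusted p = 0.201 and 0.0712). With the block the week 18 change had an unadjusted p of 0.00625 and an adjusted p of 0.563, and its unadjusted p stayed within 0.0019 to 0.0407 when each animal was left out. At week 12 the p with the block was 0.0285, and 0.0573 without Z13076, 0.0581 without Z15228 and 0.272 without Z15303. Of 7 dendritic cell markers, 6 were negative at week 12 and 4 at week 18, with medians of −0.22 and −0.18, and their part in *ITGAX* was not tested.

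*CD163*, the scavenger receptor for haemoglobin bound to haptoglobin, had values more like those of the classical genes. Its level was 145, 99.1, 103, 83.3 and 196 CPM before treatment, 105, 77.7, 89.3, 101 and 134 CPM at week 12 and 229.8, 165, 78.2, 124 and 134 CPM at week 18. It was lower in 4 of 5 animals at week 12, at −0.30 (SE 0.27). Between week 12 and week 18 it was higher in 4 of 5, by 0.53 (SE 0.27) (unadjusted p = 0.0649, and 0.0158 with the block, adjusted p = 1.00). Z13076 and Z15228 again had the large differences, 1.12 and 1.08 in log2 CPM. The p with the block was 0.101 without Z13076 and 0.111 without Z15228.

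The other macrophage-like genes lay close to 0. *CD68*, a lysosomal glycoprotein, had a log2 fold change of −0.17 (SE 0.18) at week 18, and *CTSB*, the gene of the protease cathepsin B, one of −0.09 (SE 0.20). *HMOX1*, which encodes a haem oxygenase, was at −0.06 (SE 0.17), and *LST1*, a transmembrane protein of leukocytes, at −0.08 (SE 0.29). *GRN*, the gene of progranulin, and *AIF1*, an actin-binding protein, were positive at week 18, by 0.24 (SE 0.18) and 0.11 (SE 0.25).

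Among the shared myeloid genes, the transcription factors differed. *SPI1*, which encodes PU.1, was at 289, 262, 331, 222 and 219 CPM before treatment, 139, 224, 258, 230.2 and 257 CPM at week 12 and 287, 288, 260.3, 267 and 247 CPM at week 18. Z13076 was far below the other 4 animals at week 12. The change was −0.26 (SE 0.16) at week 12 and 0.03 (SE 0.16) at week 18 (unadjusted p = 0.127 and 0.859).

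*CEBPD* encodes C/EBP delta, a transcription factor induced in the acute phase. It was at 168, 169, 179, 105 and 152 CPM before treatment, 112, 168, 227, 161 and 236 CPM at week 12 and 242, 217, 215, 189 and 232 CPM at week 18. The means were 155 ± 29.5, 181 ± 51.2 and 219 ± 20.0 CPM (SD, n = 5). Every week 18 value lay above every pre-treatment value, the single case of no overlap among the 37 members in that comparison (0.334% of all features had none). The other comparisons had no such member, against 0.28% of features at week 12 and 0.101% between week 18 and week 12. The week 18 change was 0.50 (SE 0.18), a fold of 1.41, with unadjusted p = 0.0156 and adjusted p = 1.00 without the block, and 0.00345 and 0.493 with it. The unadjusted p ranged from 0.0166 to 0.0431 when each animal was left out. *CEBPB*, the related factor C/EBP beta, was at −0.13 (SE 0.19).

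*CYBB* encodes gp91phox, the catalytic subunit of the phagocyte NADPH oxidase that makes superoxide. It was at 178, 97.3, 185, 169 and 214 CPM before treatment, 114, 86.3, 134, 133 and 144 CPM at week 12 and 193, 132, 119.9, 127 and 148 CPM at week 18. At week 12 it was lower in 5 of 5 animals, with differences in log2 CPM of −0.64, −0.17, −0.47, −0.34 and −0.58. The fitted change was −0.46 (SE 0.20), a fold of 0.725 (unadjusted p = 0.0305, and 0.00597 with the block, adjusted p = 0.669 with it). Without the block the unadjusted p was 0.0587 to 0.0768 when Z13076, Z15303, Z15339 or Z15408 was left out. With the block it stayed within 0.00364 to 0.0247 when each animal was left out. At week 18 the change was −0.23 (SE 0.20), with Z13076 and Z15228 above their own pre-treatment values and the other 3 below.

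*CLEC7A*, the gene of the fungal beta-glucan receptor dectin-1, was at 33.2, 30.8, 57.8, 28.4 and 52.3 CPM before treatment, 17.2, 34.1, 33.0, 24.5 and 30.4 CPM at week 12 and 47.8, 40.1, 38.7, 25.0 and 36.3 CPM at week 18. It was lower in 4 of 5 animals at week 12, with a log2 fold change of −0.54 (SE 0.23) (unadjusted p = 0.0346). Leaving out Z13076, Z15303 or Z15408 gave 0.0662, 0.112 and 0.117. Between week 12 and week 18 it was higher in 5 of 5 animals, by 0.43 (SE 0.24) (unadjusted p = 0.0841, and 0.0308 with the block, but 0.263 with the block without Z13076).

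*FGL2*, a fibrinogen-like protein with effects on coagulation and immune regulation, was at 412, 231, 456, 354 and 565 CPM before treatment, 347, 219, 239, 246 and 349 CPM at week 12 and 490.1, 303, 246, 266 and 330.2 CPM at week 18. It was lower at week 12 in 5 of 5 animals, at a fitted log2 change of −0.53 (SE 0.23) (unadjusted p = 0.0372, and 0.0038 with the block). Leaving out Z15303, Z15339 or Z15408 gave 0.136, 0.0795 and 0.0865 without the block, and with it the unadjusted p stayed within 0.0015 to 0.0276 when each animal was left out. At week 18 the change was −0.30 (SE 0.23), again with Z13076 and Z15228 above their pre-treatment values and the other 3 animals below.

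The remaining shared genes had smaller fitted values. *TYROBP* and *FCER1G*, the signalling adaptors of many activating receptors, were at −0.06 (SE 0.21) and −0.0049 (SE 0.21) at week 12. *CTSH*, the gene of the protease cathepsin H, was at −0.20 (SE 0.17), and *CST3*, the gene of the protease inhibitor cystatin C, at 0.07 (SE 0.37). *TGFBI*, a secreted adhesion protein, was at −0.23 (SE 0.22), and *ITGAM*, the gene of the integrin chain CD11b, at 0.11 (SE 0.33).

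**Figure D3:**
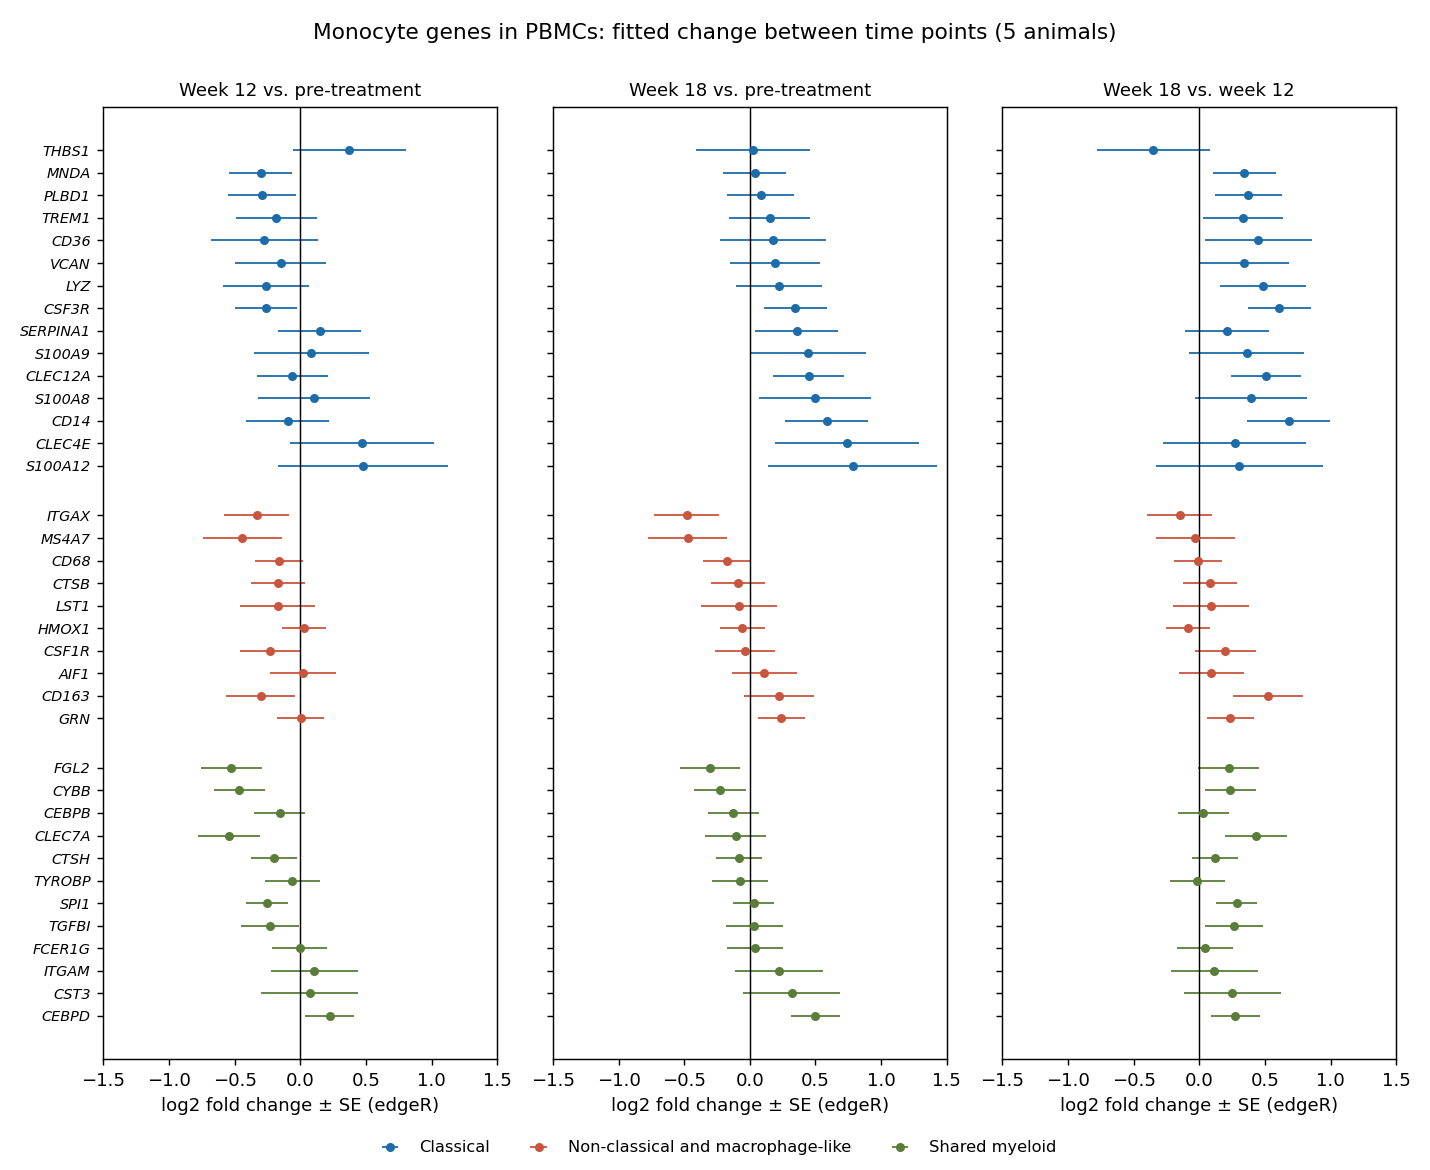
Log2 fold change ± SE from edgeR (x axis) of each of the 37 monocyte genes (rows) in the 3 comparisons (panels), coloured by group and ordered within a group by the week 18 change. All 15 classical genes lie right of 0 at week 18, 7 of 10 non-classical and macrophage-like genes lie left of it, and no gene passed the adjusted test.

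Counted by unadjusted p under 0.05, 3 members were lower at week 12 (*CLEC7A*, *CYBB* and *FGL2*) and none higher, beside 1.09% of all features lower and 0.52% higher. At week 18 none was lower and 1 was higher (*CEBPD*), beside 1.08% and 0.613%. Between week 18 and week 12 none was lower and 2 were higher (*CD14* and *CSF3R*), beside 0.225% and 0.28%. These counts moved with the animals in the fit when each animal was left out. They ran from 0 to 3 members at week 12, beside 1.08% to 2.31% of all features. Between week 18 and week 12 they ran from 0 to 3, beside 0.405% to 0.846%.

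With the animal as a block the counts were 5 lower and 0 higher at week 12, beside 3.25% and 1.44% of features. The 2 additions were *ITGAX* and *MS4A7*. At week 18, 2 were lower (*ITGAX* and *MS4A7*) and 3 higher (*CD14*, *CLEC12A* and *CEBPD*), beside 3.78% and 2.07%. Between week 18 and week 12 none was lower and 7 were higher, beside 1.01% and 1.16%. These were *CD14*, *LYZ*, *CSF3R*, *CLEC12A*, *PLBD1*, *CD163* and *CLEC7A*, and the unadjusted p with the block was 0.00769 for *LYZ*, 0.00676 for *CLEC12A* and 0.031 for *PLBD1*, which were at 0.16, 0.0759 and 0.164 without it. When each animal was left out, the lowest count with the block at week 12 was 3, all lower, without Z15303 (4.36% of all features). The highest was 7, without Z13076 (3 lower and 4 higher, 9.69%) or without Z15408 (all lower, 4.55%). The lowest share of features was 3.40%, without Z15339. At week 18 they ran from 3 without Z15339 (2 lower and 1 higher, 3.95% of features) to 10 without Z15303 (2 lower and 8 higher, 4.66%). The share of features was highest without Z13076, at 10.6%, beside 8 members. Between week 18 and week 12 they were 2 without Z13076 (*CD14* and *CLEC12A*), 4 without Z15228, 7 without Z15339 and 13 without Z15408, all higher. Without Z15303 the count was 15, with 1 lower and 14 higher. The shares of all features in these fits were 1.59% to 2.92%.

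Members that went the same way in 5 of 5 animals numbered 4 at week 12, all lower (*MNDA*, *PLBD1*, *CYBB* and *FGL2*), beside 3.45% of features lower and 2.21% higher. At week 18 they numbered 5, all higher (*S100A9*, *S100A12*, *CLEC4E*, *CLEC12A* and *CEBPD*), beside 3.49% lower and 3.04% higher. Between week 18 and week 12 they numbered 2, both higher (*CD14* and *CLEC7A*), beside 2.87% and 2.97%.

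From week 12 to week 18 the median change was larger in each of the 2 animals with dates of their own than in any of the 3 with shared dates. The median change over the 37 members was 0.82 in Z13076 and 0.48 in Z15228, and 36 and 34 members were higher. In Z15303, Z15339 and Z15408, whose libraries share dates, it was −0.13, 0.07 and −0.08, with 13, 23 and 13 members higher. Fitted on these 3 animals alone, the median between week 18 and week 12 was −0.06, against 0.25 in all 5, and no member had an unadjusted p under 0.05 with or without the block. With 1 animal on each of the other sets of dates, date and animal cannot be told apart there, and the difference between the sets of animals was not tested.

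The week 12 and week 18 changes were also fitted on the 3 animals with shared dates. Their median at week 12 was 0.05, against −0.16 in all 5. *CYBB* and *FGL2* had an unadjusted p under 0.05 and were lower at both time points in that fit, *CLEC7A* was lower at week 12, and *CEBPD* was higher at both, which makes 4 and 3 members beside 3.43% and 3.72% of all features in that fit. With the block added, 3 members were lower and 9 higher at week 12, and 5 lower and 5 higher at week 18, while 16.3% and 17.5% of all features were under the same limit. The lowest adjusted p of a member in that fit was 0.0640 at week 12 and 0.0608 at week 18, both for *FGL2*. The classical minus non-classical median at week 18 was 0.56 on these 3 animals, and 0.34 with the block. Between week 18 and week 12 it was 0.083, from medians of −0.061 and −0.14, and 0.033 with the block.

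**Figure D4:**
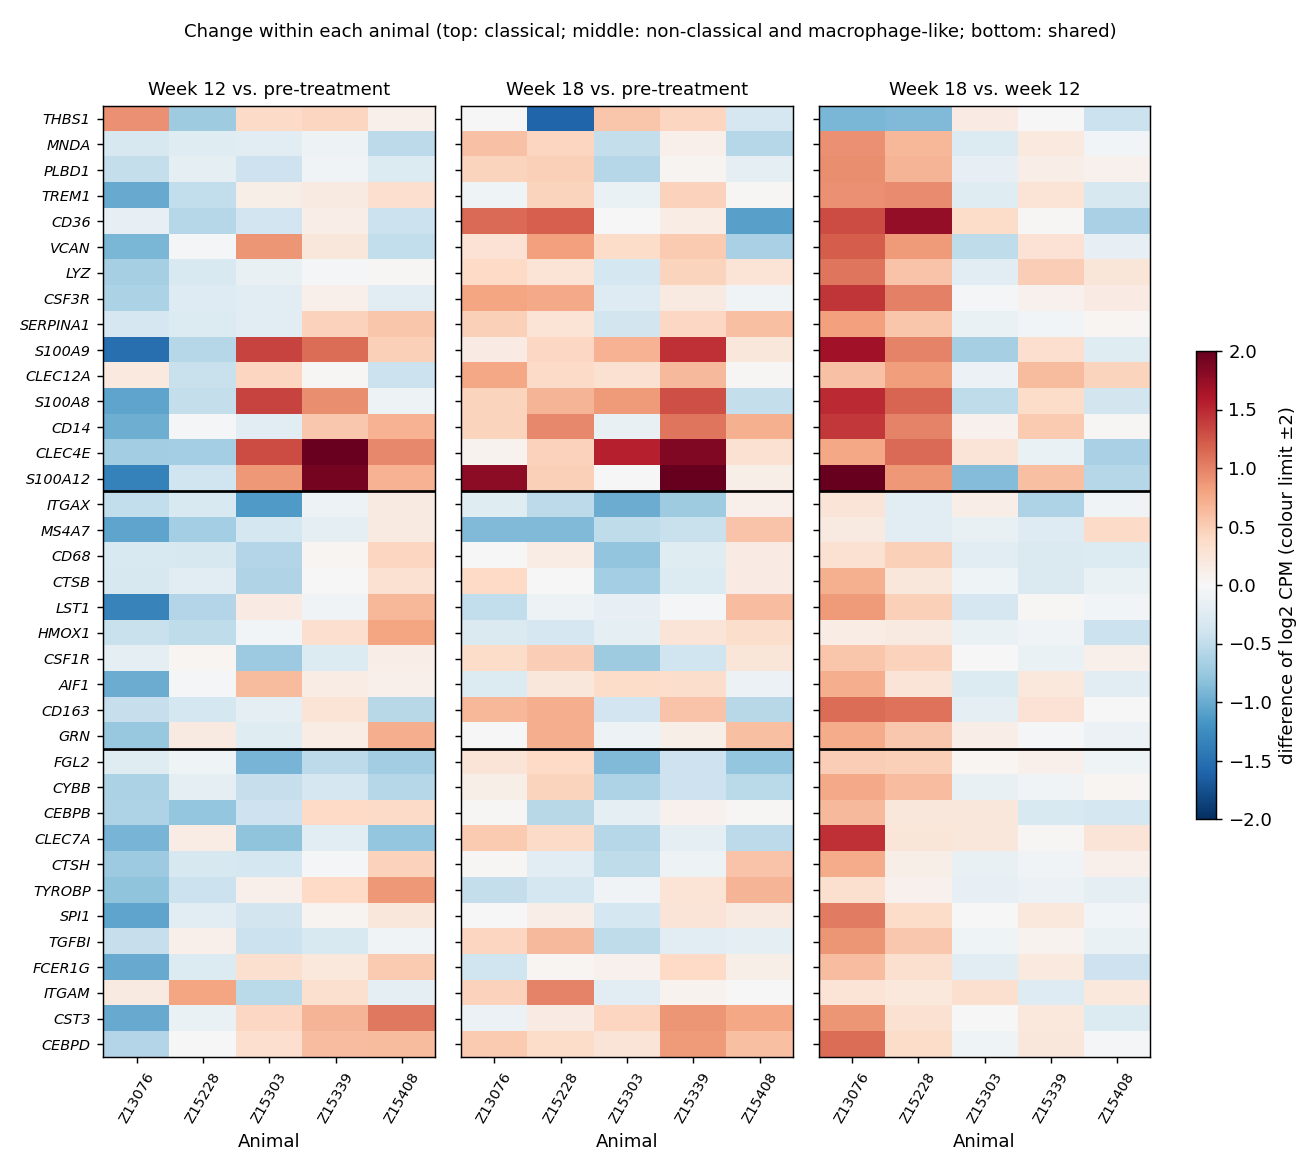
Difference of log2 CPM within each animal (columns) for the 37 monocyte genes (rows), in 3 panels for the 3 comparisons, red for higher and blue for lower at the later time point, with the colour limited at ±2. Z13076 is blue for 34 of 37 genes at week 12 and red for 36 of 37 between week 12 and week 18, while the animals with shared dates are pale in the last panel.

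Animals differed in the level of these genes about as much as they did in other features. The sum of squares between animals made up 53.5% of the total for log2 CPM over the 15 libraries in the median member. In the median feature tested it made up 51.9%. This share is not corrected for the number of libraries per animal, so it is positive even where animals do not differ. *SPI1* had the lowest share among members, at 15.6%, followed by *GRN* at 19.4% and *CEBPD* at 26.2%. *ITGAM* and *LYZ* had the highest, at 81.9% and 80.3%.

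After each animal's mean was taken off, the level of *CD14* over the 15 libraries ran most closely with *TOM1*, *NCF1*, *CAVIN3*, *LTBR*, *HAAO*, *PHETA1*, *FCGRT*, *DGAT2*, *TMEM173* and *RASSF4*, with Spearman's rho from 0.96 to 0.90. None of these 10 is a member. *NCF1* has near-identical copies in other primates, and whether such copies affect its counts here was not tested. Of the 36 other members 33 had a positive rho, and 7 ranked among the 100 features most like *CD14*, led by *CEBPD* (0.89), *SERPINA1* (0.89) and *GRN* (0.86). *MS4A7* was at 0, *ITGAX* at −0.12 and *THBS1* at −0.43. The 15 libraries come from 5 animals, and all genes of 1 library share its depth and cell composition, so these values are a description.

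Other genes of the monocyte programme, which are no members, were counted from lists chosen for what their genes do. Of 19 tested further classical genes, 12 were negative at week 12 and 14 positive at week 18, with medians of −0.07 and 0.21. None had an unadjusted p under 0.05 at week 18, and with the block 4 were higher, namely *CD33*, *QPCT*, *MGST1* and *ALOX5AP*. At week 12, 1 was lower, *CD93*, a receptor on monocytes and endothelium, at −0.60 (SE 0.26, unadjusted p = 0.0321, and 0.00774 with the block). None of them passed the adjusted test.

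Of 26 further non-classical and macrophage genes listed, 18 had a row and 16 were tested. *FCGR3A*, *FCGR3*, *CDKN1C*, *RHOC*, *LILRB1*, *LILRB2*, *C1QA* and *IFITM3* had no row under those symbols. Of the 16, 10 were negative at each later time point, with medians of −0.04 and −0.07. *SIGLEC10*, an inhibitory lectin, was the single such gene with an unadjusted edgeR p under 0.05 at week 12 without the block, at −0.45 (SE 0.17, 0.0159 without and 0.0101 with the block). With the block, *CSF2RA*, a subunit of the receptor for granulocyte-macrophage colony-stimulating factor, and *LGALS3*, the gene of galectin 3, were higher at week 18, and *POU2F2* was lower at both later time points. Of 12 further transcription factors, 6 were negative at week 12, and *MAF* was higher at 0.62 (SE 0.29, unadjusted p = 0.0489). *KLF4* and *IRF8*, which direct monocyte development, were at −0.41 (SE 0.19) and −0.42 (SE 0.30). Their unadjusted p was 0.0505 and 0.183 without the block, and 0.0124 and 0.0115 with it. The 8 tested B-cell markers had medians of −0.94 and −1.06 at week 12 and week 18. The part of B cells in the lower values of *SIGLEC10*, *POU2F2* and *IRF8* was not tested. *KLF2*, a factor of quiescent leukocytes, was at 0.23 (SE 0.19) and 0.25 (SE 0.19) at week 12 and week 18. Its unadjusted p was 0.23 and 0.209 without the block, and 0.0465 and 0.0468 with it. At week 18, *ZEB2* and *FLI1* were at −0.25 (SE 0.16) and −0.21 (SE 0.12). Their unadjusted p was 0.152 and 0.105 without the block, and 0.0348 and 0.0412 with it. None of the 12 had an unadjusted p under 0.05 at week 18 without the block. The 4 tested growth factor and receptor genes had medians of −0.12 and 0.04.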

How the data were processed

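The authors extracted total RNA from PBMCs, amplified cDNA with the SMART-Seq v4 kit, prepared Nextera XT libraries, and aligned paired reads with STAR (2.7.9a in the submitters' processing notes) to the *M. nemestrina* genome of Ensembl. The deposited values are raw counts of reads per gene from STAR, without normalization or filtering. STAR's gene counts can be read for either strand, and which strand was used is not given in the sources used here. How reads of overlapping genes were counted is therefore not known. All 15 columns were matched to samples by the library names, and 0 columns were left unused.

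Counts were analysed in R 4.3.3 with edgeR 4.0.16 (TMM, filterByExpr with a minimum count of 10, glmQLFit and glmQLFTest on all 15 libraries, time point as the only term) and DESeq2 1.42.0 as an alternative. SEs were taken as the size of the log2 fold change over the root of its F statistic. Log2 CPM used a prior count of 2. On simulated counts edgeR was tested and recovered known changes. These counts held no differences between animals, and the planted changes were larger than the fitted changes of the members. The simulation therefore cannot show how well changes of the size reported here are recovered in paired libraries. Replicate numbers are animal identifiers, which pair the libraries: deviations from the time point means correlated at 0.351 to 0.683 over 15 pairs of libraries from 1 animal, with a mean of 0.551, and at a mean of −0.137 over 60 other pairs. The common biological coefficient of variation was 29.3% without the block and 16.9% with it.

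The members and gene lists were chosen with earlier results of these data known. Named with every library's value were *CD14*, *VCAN*, *S100A8*, *S100A9*, *CSF1R*, *MS4A7*, *CD163* and *SPI1*, and the member with the lowest unadjusted p in each group and comparison. *FGL2* was added after its values were seen. Other members were named by an unadjusted p under 0.05 or the same direction in 5 of 5 animals, and the rest by level or change. Alternatives were DESeq2, the block, other scaling and filters, fewer time points, the animals with shared dates, and leaving out each animal. No sequences or coordinates are given, since the annotation at hand was of another build.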

Additional observations from a re-analysis of the deposited data

Results flagged for a closer look

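In 42 groups of 5 libraries, 1 for each of 14 genes at each of 3 time points, the highest and the lowest value were compared with the range of the group, a check in which chance alone marks about 1 group in 20. It marked 2 groups, both at week 12. *SPI1* was at 138.9 CPM in Z13076, while the other 4 animals lay between 224 and 258 CPM. *CSF3R* was at 184 CPM in Z15408, while the other 4 lay between 126 and 132 CPM.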

How the results depend on the processing

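No monocyte gene passed the adjusted p under any alternative. All features passing at week 12, week 18 and between them numbered 21, 50 and 8 by DESeq2 with the block, 1, 1 and 0 by edgeR with the block, 7, 7 and 0 with the block on the 3 animals with shared dates, and 1 at week 12 by DESeq2, against 0 in each comparison. Members with an unadjusted p under 0.05, which were 3, 1 and 2, beside 1.61%, 1.69% and 0.505% of all features, numbered 5, 5 and 7 with the block (4.69%, 5.85% and 2.17% of features), 5, 7 and 8 by DESeq2 with the block (2.96%, 3.76% and 1.39%), 12, 10 and 0 with the block on the animals with shared dates (16.3%, 17.5% and 1.58%), 3 at week 18 and 0 between the later time points on those animals without it (3.72% and 0.277%), and 2 at week 18 when only its 2 time points were fitted (1.47%). Leaving out each animal gave 0 to 3 at week 12 (1.08% to 2.31% of features) and 0 to 3 between the later time points (0.405% to 0.846%). The classical minus non-classical median at week 12 was 0.36 on the animals with shared dates. Of 630 alternative values for 14 genes in 3 comparisons, 583 kept their direction, and the cause of the 47 reversals was not tested. Without the animals on dates of their own, and then with the block, *CD14* was at 0.32 and 0.32 and *VCAN* at 0.054 and 0.19 at week 12, *CD163* at −0.17 and −0.12, *MNDA* at −0.36 and −0.30 and *CSF3R* at −0.041 and −0.036 at week 18, and *VCAN* at −0.12 at week 18 without it. Between the later time points the same fits gave *VCAN* −0.18 and −0.13, *S100A8* −0.30 and −0.16, *S100A9* −0.30 and −0.18, *MNDA* −0.061 and −0.035, *CYBB* −0.058 and −0.061, and *MS4A7* 0.012 with the block. The block, by edgeR and by DESeq2, gave *CD14* 0.0078 and 0.014 at week 12, *CSF1R* 0.00034 and 0.0043 at week 18, and *MS4A7* 0.0014 and 0.00049 between the later time points. Leaving out each animal gave ranges at week 12 of −0.30 to 0.20 for *CD14*, −0.37 to 0.017 for *VCAN*, −0.34 to 0.35 for *S100A8* and −0.27 to 0.40 for *S100A9*, at week 18 of −0.16 to 0.16 for *CSF1R*, −0.023 to 0.14 for *SPI1*, −0.17 to 0.21 for *MNDA* and −0.28 to 0.051 for *CLEC7A*, and between them of −0.12 to 0.024 for *MS4A7* and −0.26 to 0.030 for *ITGAX*. The block changed no other call by the adjusted p, and members whose unadjusted call it changed are given with the results. With 5 animals and 5610597 to 10379572 counts per library, *S100A12*, *CLEC4E* and *CD36* were measured with the widest counting error.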

Other observations

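Over the 37 monocyte genes, the summed level was 12602 CPM in Z13076 at week 12, the lowest of the 15 libraries, and 21515 CPM in the same animal at week 18, the highest. The median change of the 10 T-cell markers lay between −0.01 and 0.28 on the log2 scale in the 5 animals at week 12 and between −0.05 and 0.33 at week 18.

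The red cell markers, of which 3 were tested, had median changes between week 12 and week 18 of 3.09 in Z13076, −0.84 in Z15228, −1.75 in Z15303, −0.85 in Z15339 and 0.63 in Z15408. The median change of 8 NK-cell markers in the same interval was −0.57 in Z13076 and −0.21 in Z15228, and it lay between −0.28 and 0.06 in the animals with shared dates.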
